A study of Homo sapiens with 6 samples.

Results

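The genes described here encode proteins of the synaptic vesicle and of the synapse, as read in AN3CA cells, an established human endometrial cancer cell line, with and without knockdown of *PAX2*. The set names 45 genes by function: 3 priming factors, 6 fusion proteins and fusion regulators, 6 synaptotagmins, 6 vesicle membrane proteins, 9 active zone proteins, 5 adhesion molecules, 7 postsynaptic scaffolds and the 3 genes of the SEZ6 family. Of these, 38 were among the 17471 genes of the expression table. The other 7, *ERC2*, *SYN2*, *SYT4*, *PPFIA2*, *SHANK2*, *RIMS1* and *RIMS2*, were not analysed here. The genes were chosen by name, on earlier results of this same comparison, so every change given below for one of the 45 is a description and carries no p-value.

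The 3 shEV libraries came from AN3CA cells transduced with an empty lentiviral hairpin vector, and the 3 shPAX2 libraries from AN3CA cells transduced with a lentiviral short hairpin RNA against *PAX2*, a developmental transcription factor. The labels and methods give the empty vector, while elsewhere the study's text calls an AN3CA control scrambled. Both were stable lines kept after puromycin selection, and shPAX2 rests on 1 hairpin construct. Nothing in the labels says that the 3 libraries of a group were separate cultures, so p-values measure the spread between these libraries, which may be technical.

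At a synapse, vesicles filled with transmitter are held at the active zone by large scaffolds, primed by Munc13 proteins, and fused with the cell membrane by SNARE proteins under the control of complexins and calcium-sensing synaptotagmins. Neurexins and neuroligins hold the membranes on either side together, and Homer, Shank and PSD-95 proteins organise the receiving side. In most tissues other than brain and endocrine glands the neuronal members of these families are kept low, in part by the repressor REST, while close relatives serve general membrane traffic.

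The shEV libraries held 10730909 to 18221859 reads and the shPAX2 libraries, all of them deeper, 19422615 to 29405787. *PAX2* itself was at 4.03, 3.66 and 2.74 TPM (reads scaled by gene length and by library total) in shEV and at 0.916, 0.723 and 1.17 TPM in shPAX2, a log2 fold change of −1.47 ± 0.18 (SE). Genes with at least 0.5 TPM in at least 3 libraries were tested, and a call needed an adjusted p under 0.05 and a difference of at least 1 in log2(TPM + 0.5), a scale that shrinks the fold of a gene near or under 0.5 TPM. Over all 13163 genes tested, 188 were called higher and 410 lower, and the median log2 fold change was −0.10. Adjusted p alone was under 0.05 for 5629 of them, so a difference under the fold needed for a call was common.

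Of the 38 synapse genes in the table, 20 were tested, and 18 were below the TPM minimum. The test called 5 of the 20 higher in shPAX2, *UNC13A*, *SEZ6L2*, *CPLX1*, *SYP* and *BSN*, beside 1.43% of all genes tested. It called 0 of them lower, beside 3.11% of all genes. Since the genes were chosen with this contrast known, nothing is read from these counts, and 4 of the 5 (*SYP* excepted) reached the TPM minimum in no shEV library, so they could only be tested because they were high in shPAX2. The median over the 20 was −0.14, with 9 values above 0 and 11 below, but under quantile normalization it was 0.11, with 12 above and 8 below. The changes of the other 15 ran from −0.71 to 0.28, a narrow band beside the called genes, whose changes ran from 1.45 to 4.14.

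**Figure D1:**
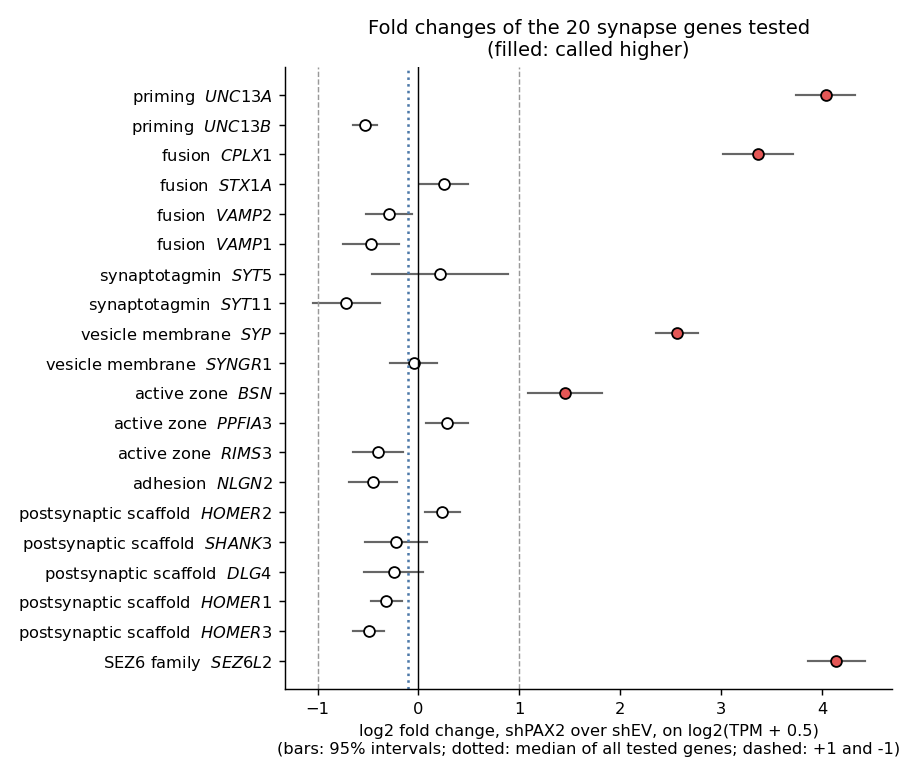
Log2 fold changes (x axis, shPAX2 over shEV, on log2(TPM + 0.5)) of the 20 tested synapse genes, ordered by role on the y axis, with 95% intervals as bars and called genes filled. The 5 called genes lie at 1.45 and above, and the other 15 lie between −0.71 and 0.28.

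Of the priming factors, *UNC13A* was called and *UNC13B* was not. *UNC13A* encodes Munc13-1, which readies docked vesicles for fusion at most excitatory synapses. It lies at chr19:17712145-17799174 on the minus strand (GRCh37). Its promoter is shown because it held letters of both parts of RE1, the element bound by REST. The window (RefSeq, GRCh38.p14, chr19:17688340-17688604, minus strand, from 250 bases before the start site to 15 bases after it) has in capitals the reverse complements of GGACAGC, at bases 242 to 248, and of TTCAGCACC, at bases 257 to 265:
UNC13A: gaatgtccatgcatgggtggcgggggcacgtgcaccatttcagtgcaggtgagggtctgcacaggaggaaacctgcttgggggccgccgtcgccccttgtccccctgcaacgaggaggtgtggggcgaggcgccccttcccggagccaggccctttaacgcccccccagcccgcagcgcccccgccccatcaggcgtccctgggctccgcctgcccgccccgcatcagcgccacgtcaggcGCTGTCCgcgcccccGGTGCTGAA

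*UNC13A* was read at 0.0947, 0.0460 and 0.0338 TPM in shEV and at 8.20, 8.80 and 8.93 TPM in shPAX2. Every shPAX2 library was far above every shEV library, where only 5, 4 and 3 reads were found, against 1234, 1167 and 857. The fitted log2 fold change was 4.03 ± 0.13 (SE), and the ratio of mean TPM was 149. Because the shEV reads were so few, counting error alone allowed a ratio of summed reads, scaled for depth, of 93.6 to 317 (95% exact interval).

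Its paralogue *UNC13B*, encoding Munc13-2, was the most abundant of the 45 genes. *UNC13B* stood at 62.7, 59.9 and 60.6 TPM in shEV and at 41.6, 42.7 and 41.8 TPM in shPAX2, with no overlap between groups. The log2 fold change was −0.53 ± 0.05, short of the call. As a share of the TPM of the 3 UNC13 genes, *UNC13A* made up 0.0555% to 0.151% in shEV and 16.4% to 17.5% in shPAX2, while *UNC13B* made up 99.6% to 99.8% in shEV and 82.2% to 83.2% in shPAX2. *UNC13D*, which primes the granules of blood cells, had at most 13 reads in any library. *UNC13B* thus remained the main UNC13 transcript in both groups.

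*SEZ6L2*, a neuronal cell surface protein with CUB and sushi domains, had the highest log2 fold change of the 20 tested genes on the log2(TPM + 0.5) scale, though *UNC13A* exceeded it in ratio of mean TPM. It lies at chr16:29882480-29910871 on the minus strand (GRCh37). The shEV libraries held 0.209, 0.254 and 0.187 TPM (4, 8 and 6 reads), and the shPAX2 libraries 10.9, 13.0 and 12.7 TPM (593, 621 and 440 reads). The change was 4.14 ± 0.12 on the log2 scale and 56.1-fold in mean TPM, with a counting interval of 34.9 to 93.7. It ranked 6 among the 13163 genes ordered from the highest change, and *UNC13A* ranked 8. Its relatives were close to absent, with 0 reads of *SEZ6* and of *SEZ6L* in shEV. *SEZ6* had 5, 24 and 4 reads in shPAX2, or at least 2.05-fold more than 3 reads in each shEV library would give, and most of them came from replicate 2.

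Among the fusion genes, the call fell on a regulator and on none of the SNAREs. *CPLX1* encodes complexin 1, which clamps and then assists the assembled SNARE complex, and lies at chr4:778745-819917 on the minus strand (GRCh37). *CPLX1* was at 0.348, 0.211 and 0.103 TPM in shEV (4, 4 and 2 reads) and at 7.11, 6.76 and 6.70 TPM in shPAX2 (233, 195 and 140 reads). The groups did not overlap, and the log2 fold change was 3.36 ± 0.16. Mean TPM was 31.0-fold higher in shPAX2, with a counting interval of 18.5 to 71.8. *CPLX2* had at most 6 reads in any library, so *CPLX1* made up 90.2% to 100% of complexin TPM in shEV and 98.2% to 99.8% in shPAX2.

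None of the SNARE genes whose proteins complexin binds was called. *STX1A*, the syntaxin of the cell membrane, was at 9.20, 7.99 and 8.70 TPM in shEV and at 9.84, 9.39 and 12.0 TPM in shPAX2, a log2 fold change of 0.25 ± 0.10. The lowest shPAX2 library was close to the highest shEV library. The vesicle SNAREs *VAMP1* and *VAMP2*, synaptobrevins 1 and 2, had log2 fold changes of −0.47 ± 0.12 and −0.29 ± 0.10, neither past the call, and their split stayed near even, with *VAMP2* at 51.5% to 55.7% of their summed TPM in shEV and 52.2% to 58.6% in shPAX2. *SNAP25*, the third neuronal SNARE, had 0 reads in each shEV library and 9, 9 and 2 in shPAX2, at most 0.307 TPM. That is at least 1.19-fold over the floor of 3 reads per shEV library, so its own level stayed near the limit of detection.

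*SYP* was the only called gene above the TPM minimum in both groups. It encodes synaptophysin, an abundant protein of the vesicle membrane and a routine marker of neuroendocrine differentiation in pathology, and lies at X:49044268-49056677 on the minus strand (GRCh37). *SYP* was read at 4.75, 5.77 and 6.05 TPM in shEV and at 36.4, 33.5 and 34.9 TPM in shPAX2. These rested on 62, 124 and 133 reads against 1354, 1100 and 828, and the groups were far apart. The log2 fold change was 2.56 ± 0.09 and mean TPM was 6.32-fold higher, with a counting interval of 5.53 to 6.98.

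No other vesicle membrane gene was called. *SYNGR1*, synaptogyrin 1, had a log2 fold change of −0.05 ± 0.10 that turned positive under median-of-ratios scaling, quantile normalization and without replicate 3 of either group. *SYN1*, encoding synapsin I, which tethers vesicles to actin, had 0 reads in each shEV library and 4, 7 and 3 in shPAX2, a mean TPM no higher than 3 reads in each shEV library would give. *SV2A* had at most 5 reads in any library and *SV2B* at most 1.

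**Figure D2:**
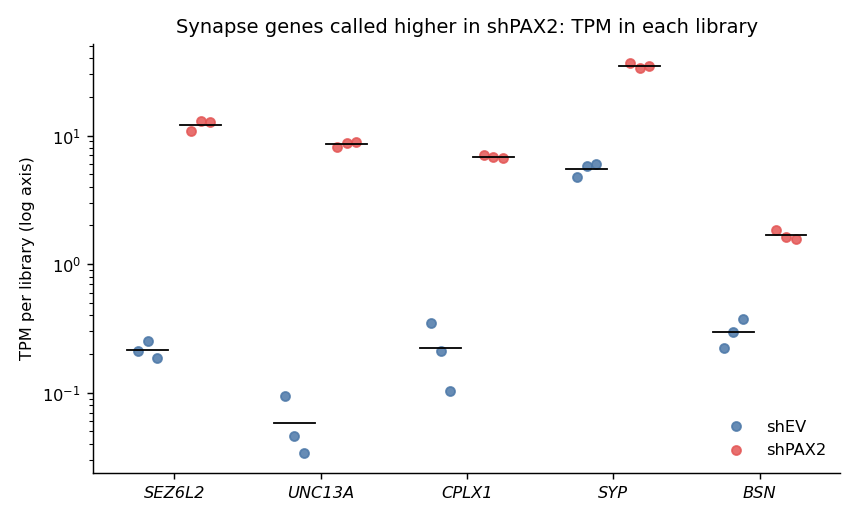
TPM in each library (y axis, log scale) for the 5 synapse genes called higher, with shEV in blue, shPAX2 in red and lines at the group means. In every gene the 3 shPAX2 libraries lie above the 3 shEV libraries, and *SYP* is the only gene above 0.5 TPM in shEV.

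*BSN* encodes Bassoon, a very large scaffold of the presynaptic active zone, and lies at chr3:49591910-49708982 on the plus strand (GRCh37). Its promoter is shown because it also held GGACAGC, in capitals at bases 130 to 136 of the 250 bases before the start site (RefSeq, GRCh38.p14, chr3:49554227-49554476, plus strand):
BSN: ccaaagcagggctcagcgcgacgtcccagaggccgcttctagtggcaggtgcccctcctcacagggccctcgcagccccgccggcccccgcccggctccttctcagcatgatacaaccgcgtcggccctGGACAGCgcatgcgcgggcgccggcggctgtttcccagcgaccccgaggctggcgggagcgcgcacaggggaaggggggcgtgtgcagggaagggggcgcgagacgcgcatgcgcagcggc

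*BSN* was at 0.222, 0.298 and 0.375 TPM in shEV and at 1.83, 1.63 and 1.56 TPM in shPAX2. It was the lowest of the called genes in shPAX2, yet its long transcript gave 448, 351 and 243 reads there, against 19, 42 and 54 in shEV. The log2 fold change was 1.45 ± 0.16, and mean TPM was 5.62-fold higher with a counting interval of 4.50 to 6.68. The difference between the fitted and the plain fold reflects the added 0.5 TPM, which exceeds all shEV values of *BSN*.

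The rest of the active zone was mixed. *PCLO*, which encodes Piccolo, the close relative of Bassoon, was found with 1, 2 and 1 reads in the shEV libraries and with 5, 6 and 9 in the shPAX2 libraries, at least 1.38-fold over the floor. *PPFIA3*, encoding liprin-α3, which organises the active zone, stood at 24.0, 23.4 and 28.3 TPM in shEV and at 33.7, 30.4 and 28.3 TPM in shPAX2. The groups touched at 28.3 TPM, and the log2 fold change was 0.28 ± 0.09. *RIMS3*, a short RIM protein, was at 7.09, 7.03 and 7.61 TPM in shEV and at 6.25, 4.81 and 5.15 TPM in shPAX2, without overlap, with a change of −0.40 ± 0.11. *RIMBP2*, which links RIM to calcium channels, had at most 7 reads in any library. Neither tested gene beside *BSN* met the call.

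The calcium sensors of vesicle release were low throughout. *SYT1* and *SYT2*, the fast sensors of neurons, had at most 1 read in any library and 0 in shPAX2, and *SYT7* had at most 2. *SYT5* had 13 reads in all of shEV and 34 in shPAX2, and its change of 0.21 ± 0.30 is within error of 0. *SYT11*, a family member that does not bind calcium, made up 76.2% to 96.5% of the TPM of the 5 listed synaptotagmins in shEV and 67.4% to 88.7% in shPAX2. Its mean was 3.03 ± 0.49 TPM (SD, n = 3) in shEV and 1.65 ± 0.18 TPM (SD, n = 3) in shPAX2. The log2 fold change of −0.71 ± 0.15 was the lowest of the 20 genes and did not reach the call.

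The postsynaptic side had no called gene. *HOMER1*, *HOMER2* and *HOMER3* encode adaptors that couple glutamate receptors to calcium stores and are also made outside the brain. *HOMER1* was at 35.1, 33.0 and 38.4 TPM in shEV and at 28.5, 28.1 and 28.4 TPM in shPAX2, a change of −0.32 ± 0.07. *HOMER3* was at 21.4, 23.9 and 21.7 TPM in shEV and at 15.2, 15.8 and 16.1 TPM in shPAX2, a change of −0.49 ± 0.07. Neither gene overlapped between groups, and both were lower in shPAX2, a direction shared by 8354 of the 13163 genes tested. *HOMER2* lay on the other side, at 20.9, 18.2 and 18.7 TPM in shEV and 23.8, 21.2 and 23.3 TPM in shPAX2, a change of 0.24 ± 0.08. Its share of Homer TPM was 23.8% to 27.0% in shEV and 32.5% to 35.3% in shPAX2.

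*SHANK3* and *DLG4*, the latter encoding PSD-95, build the scaffold beneath the receptors. Their changes were −0.22 ± 0.14 and −0.25 ± 0.13, and both turned positive under quantile normalization. *SHANK1* had at most 3 reads in any library. *NLGN2*, the neuroligin of inhibitory synapses, was at 10.4, 10.6 and 9.28 TPM in shEV and at 8.39, 6.70 and 6.78 TPM in shPAX2, a change of −0.45 ± 0.11. Among the remaining adhesion molecules, *NRXN2*, *NRXN3* and *NLGN1* had at most 3 reads in any library and *NLGN3* at most 5.

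In all, 9 of the 18 synapse genes below the TPM minimum had at most 3 reads in every library. A change in these 9 was not detectable at this depth. The summed TPM of the 38 listed genes was 216 to 228 in shEV and 244 to 255 in shPAX2, and in bulk libraries fewer cells of a type and less RNA per cell cannot be told apart.

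**Figure D3:**
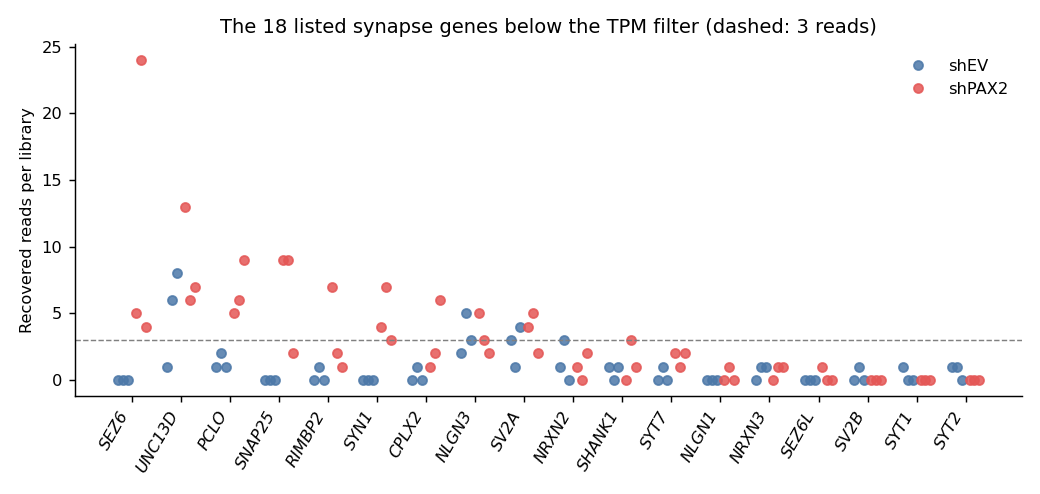
Whole reads recovered from the TPM values (y axis) for the 18 listed synapse genes below the TPM minimum, with shEV in blue and shPAX2 in red and a dashed line at 3 reads. *SNAP25*, *SYN1* and *SEZ6* had 0 reads in all shEV libraries, and the highest point is *SEZ6* in shPAX2 replicate 2 at 24 reads.

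A wider list of synapse genes, drawn up by role but with earlier results of these data known, gave the setting for the 45. Of its 146 genes, 112 were in the table and 76 were tested, of which 2 were called higher (2.63%, against 1.43% of all genes) and 4 lower (5.26%, against 3.11%). Their median log2 fold change was −0.21, with 23 values above 0 and 53 below. The all-gene median was −0.10, with 4809 values above 0 and 8354 below. No gene among the 18 fusion, 11 vesicle membrane and 14 vesicle endocytosis genes tested was called in either direction.

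*RIMS4*, a short RIM protein of the active zone like *RIMS3*, was higher in shPAX2, at 10.5, 8.50 and 8.04 TPM against 1.97, 1.63 and 2.02 TPM in shEV. Its mean was 4.82-fold higher (limma, adjusted p = 9.49e-06). *PTPRF*, the adhesion receptor phosphatase LAR that binds liprins, was higher at 78.7, 98.7 and 100.4 TPM against 42.2, 41.6 and 42.4 TPM, with a change of 1.12 ± 0.09 (limma, adjusted p = 2.91e-05).

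The lowest fitted log2 fold change of the tested genes in the list was that of *GRIP1*, a PDZ scaffold that binds AMPA receptors. *GRIP1* was at 10.3, 9.03 and 10.8 TPM in shEV and at 0.168, 0.308 and 0.203 TPM in shPAX2, a 44.5-fold lower mean (log2 fold change −3.86 ± 0.14, limma, adjusted p = 2.38e-07). *GRIP1* thus moved in the opposite direction to the 5 called genes, with every shPAX2 library far below every shEV library. *LPHN3*, an adhesion receptor also named *ADGRL3*, was at 0.547, 0.850 and 1.03 TPM in shEV and had 0, 2 and 1 reads in shPAX2, at least 20.5-fold lower (limma, adjusted p = 0.00108), a call lost with a pseudocount of 1. *PPFIA4*, liprin-α4, changed by −1.25 ± 0.27 (limma, adjusted p = 0.00975), a call lost under quantile normalization and with replicate numbers as blocks (adjusted p = 0.0553). *SYT17*, a synaptotagmin relative, changed by −1.21 ± 0.19 (limma, adjusted p = 0.00124), a call lost with a pseudocount of 1 (−0.94) and under quantile normalization (−0.96). Without any of the 3 shEV libraries, *LPHN3* and *GRIP1* had too few libraries at the TPM minimum to be tested, and with the minimum in 2 libraries both were called in each case. Both reached the minimum in no shPAX2 library, so they were tested only through their level in shEV.

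REST is the zinc finger repressor that binds RE1 elements in neuronal genes and recruits CoREST proteins and histone deacetylases. *REST* RNA was at 34.4, 31.4 and 36.3 TPM in shEV and at 19.3, 21.5 and 21.1 TPM in shPAX2. The groups did not overlap, and the log2 fold change of −0.71 ± 0.07 had an adjusted p of 0.000126 (limma) but was under the fold needed for a call. *REST* overlaps *NOA1* on the opposite strand, and the strand setting used in counting was not given in the sources used here. Of the 16 listed genes of REST and its cofactors, all tested, 0 were called higher and 1 lower, beside 1.43% and 3.11% of all genes. The called gene was *RCOR2*, which encodes a CoREST protein. *RCOR2* was at 15.5, 22.7 and 31.1 TPM in shEV and at 5.75, 6.10 and 5.16 TPM in shPAX2, a change of −1.89 ± 0.25 (limma, adjusted p = 0.00246). Even the lowest shEV library was above all shPAX2 libraries, though the shEV values spread widely. Over all genes tested the median was −0.10, with 4809 values above 0 and 8354 below. The median over the 16 was −0.20, with 4 values above 0 and 12 below. Among those above 0, the histone deacetylase gene *HDAC2* is named after its values were seen. *HDAC2* was at 41.7, 39.8 and 43.2 TPM in shEV and at 71.6, 72.7 and 70.0 TPM in shPAX2. Its change of 0.77 ± 0.06 (limma, adjusted p = 1.76e-05) was also under the fold needed for a call. Whether lower *REST* or *RCOR2* RNA had a part in the higher synapse genes was not tested.

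**Figure D4:**
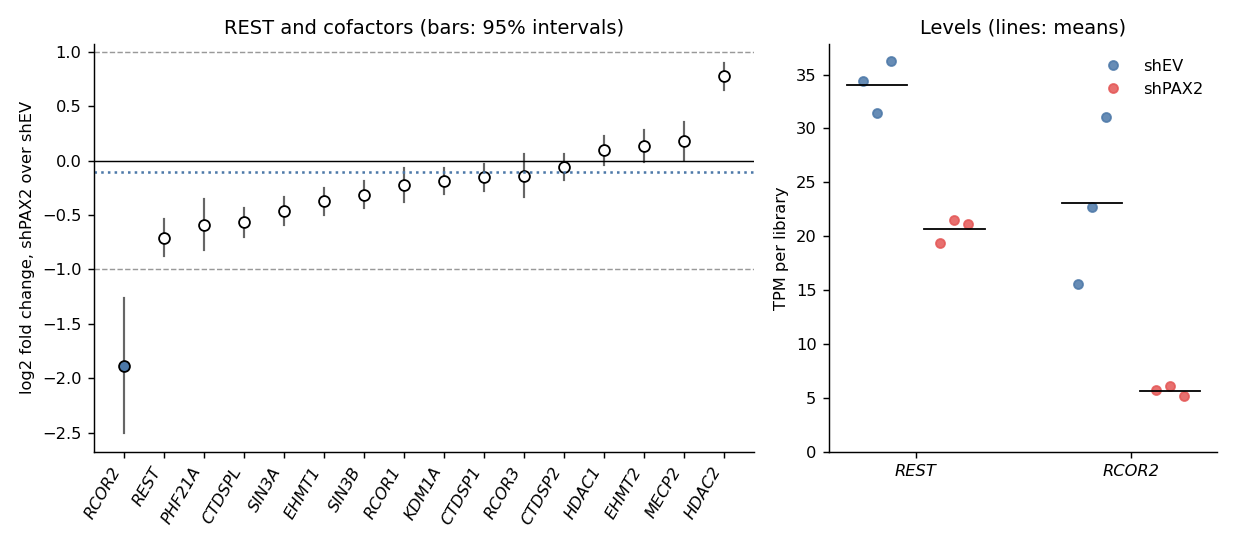
Left, log2 fold changes (y axis, shPAX2 over shEV, on log2(TPM + 0.5)) of *REST* and its cofactors with 95% intervals, the called gene filled, and the dotted line at the median of all genes. Right, TPM per library (y axis) of *REST* and *RCOR2*, with lines at the means, where all 3 shPAX2 libraries of each gene lie below all 3 shEV libraries.

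Promoter windows of RefSeq (GRCh38.p14, 250 bases before to 50 after each start site) were present for 34 of the 45 genes, 59 windows in all, including *UNC13A*, *SYP* and *BSN* among the called genes. Exact letters were searched on both strands. TTCAGCACC, the left part of RE1, was in 2 of the 59 windows, those of *UNC13A* and *SYN1*, and in 0.376% of all 35116 windows. GGACAGC, the right part, was in 2, those of *UNC13A* and *BSN*, and in 6.03% of all windows. GTCACGC, the core bound by the PAX2 paired domain, was in 1, that of *SYN2*, and in 2.52% of all windows. The *SYN1* promoter, read in these libraries only in shPAX2 and there at most 7 times, is shown for comparison with its TTCAGCACC in capitals at bases 18 to 26 (chrX:47619858-47620107, minus strand):
SYN1: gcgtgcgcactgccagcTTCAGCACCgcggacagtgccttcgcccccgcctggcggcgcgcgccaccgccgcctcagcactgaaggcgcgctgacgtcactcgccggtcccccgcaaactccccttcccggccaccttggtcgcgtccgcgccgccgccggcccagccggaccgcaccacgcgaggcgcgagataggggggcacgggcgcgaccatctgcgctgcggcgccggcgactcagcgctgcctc

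In *UNC13A* both parts lay on the same strand, left part first, next to the start site. The stretch gcgccccc of the printed sequence lay between them. In *SYN1* the letters GCGGACAGT directly followed TTCAGCACC. The right part was thus there but for its last letter, which an exact search does not count. The 3 called promoters were rich in G and C, at 72.0% in *UNC13A*, 74.0% in *SYP* and 74.4% in *BSN* over the bases before the start site. This was not particular to them, since the 59 windows ran from 34.4% to 84.8% over the same bases. The highest was a window of *SYNGR1*, which was not called. With the search limited to those bases, TTCAGCACC was left in 1 window of the 59 and in 0.288% of all windows. These are matches of letters only.

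The genes beside the called ones were examined on GRCh37, with the 5 nearest tested genes on either side of each. None of the 5 called genes overlapped another gene of the table. Of the 50 neighbours, 1 was called higher and 1 lower, beside 1.43% and 3.11% of all genes tested. Both are named here after their values were seen. *ASPHD1*, 825 bases from *SEZ6L2*, was at 0.126, 0.230 and 0.450 TPM in shEV and at 3.32, 4.97 and 4.23 TPM in shPAX2, a change of 2.61 ± 0.20 (limma, adjusted p = 2.47e-05) on 1, 3 and 6 reads against 75, 99 and 61. It reached the TPM minimum in no shEV library, so it was tested only through its level in shPAX2. *PRICKLE3*, 1287 bases from *SYP*, was lower at 1.08, 1.49 and 1.34 TPM against 3.09, 3.58 and 3.17 TPM, a change of −1.07 ± 0.14 (limma, adjusted p = 0.000424). That call was lost with a pseudocount of 1, under both other scalings and without shPAX2 replicate 1 (−0.98). *SYP* and its neighbour thus differed in direction, while *SEZ6L2* and its neighbour rose together. The medians of the 10 neighbours ran from −0.34 beside *SYP* to 0.07 beside *SEZ6L2*. On the opposite strand, *ASPHD1* overlaps *KCTD13* and *PRICKLE3* overlaps *PLP2*, and the strand setting used in counting was not given.

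**Figure D5:**
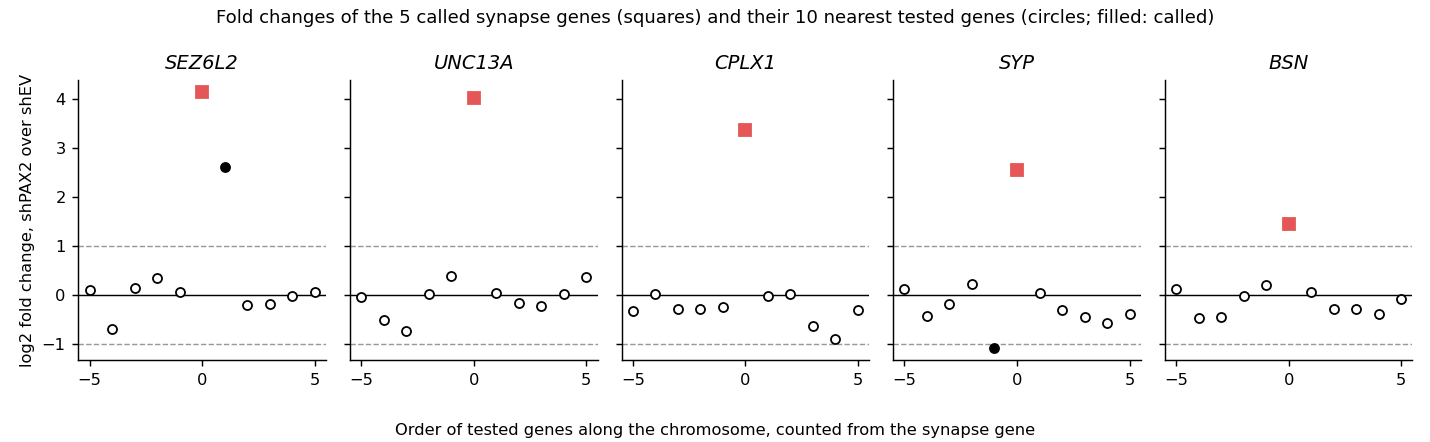
Log2 fold changes (y axis, shPAX2 over shEV) of the 5 called synapse genes (squares at 0) and of the 5 tested genes on each side (circles, x axis in order along the chromosome), filled where called. Only *ASPHD1* at 2.61 and *PRICKLE3* at −1.07 are filled among the 50 neighbours.

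Markers of cell types set these values in context. Of 18 neuron markers, 9 were in the table and 2 were tested. The other 7 in the table had at most 5 reads in any library. Of the 2, 1 was called lower, beside 3.11% of all genes tested. *MAPT*, the microtubule protein tau, was lower at 2.28, 1.99 and 1.99 TPM against 4.58, 5.09 and 5.90 TPM (limma, adjusted p = 0.000175), a call lost under quantile normalization (−0.87) and with a pseudocount of 1. The summed neuron marker TPM was 172 to 180 in shEV and 215 to 233 in shPAX2, nearly all of it from the β-tubulin gene *TUBB3*, named like *KRT18* and *VIM* below after its values were seen, whose log2 fold change was 0.38 ± 0.06.

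The neuroendocrine markers examined were the granins *CHGA* and *CHGB*, and both were called higher. *CHGA* had 0 reads in each shEV library and 0.832, 1.42 and 1.15 TPM in shPAX2, at least 5.65-fold higher (limma, adjusted p = 0.000238). *CHGB* had at most 1 read in a shEV library and 0.888, 0.728 and 0.967 TPM in shPAX2, at least 5.56-fold higher (limma, adjusted p = 0.00044), a call lost with a pseudocount of 1 (0.87). Neither granin reached the TPM minimum in a shEV library, so both were tested only through their level in shPAX2. Their summed TPM was 0 to 0.0427 in shEV and 1.72 to 2.14 in shPAX2. These markers moved with *SYP*, *UNC13A*, *SEZ6L2*, *CPLX1* and *BSN*, and their part in the result was not tested.

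The labels call the cells epithelial. Of 12 epithelial markers, 11 were in the table and *KRT18* alone was tested, at 10.2 to 12.9 TPM in shEV and 11.9 to 17.5 TPM in shPAX2. *KRT18* made up most of the summed epithelial level of 11.2 to 13.5 TPM in shEV and 12.5 to 18.2 TPM in shPAX2, so the defining markers of epithelium were close to absent. The summed level of the stromal list was 4896 to 5298 TPM in shEV and 4362 to 4556 TPM in shPAX2, mostly *VIM*. Within the list *COL3A1* was higher (log2 fold change 2.79 ± 0.18, limma, adjusted p = 0.000122). *COL1A2* was lower (−1.11 ± 0.08, limma, adjusted p = 1.75e-05), but not called under median-of-ratios scaling (−0.99). The other stromal markers were low or missing. *COL1A1* and *PDGFRB* had means of 1.02 and 1.04 TPM in shEV and of 0.888 and 0.724 TPM in shPAX2. *THY1* had at most 1 read in any library, and *DCN* and *LUM* were not in the table. Of 7 glia markers, 4 were in the table, 1 was tested and 0 were called, and the sum was 8.0 to 10.3 TPM in shEV and 7.45 to 9.11 TPM in shPAX2.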

How the data were processed

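RNA-Seq libraries were made from AN3CA cells with an empty vector (shEV, n = 3) or a *PAX2* hairpin (shPAX2, n = 3). The authors deposited TPM values, scaled by gene length and to a total of 1000000 per library, for 17471 genes named by symbol. The submitters' processing notes name hg19, bcl2fastq, STAR, Subread, featureCounts and edgeR. Per the labels, a stranded total RNA kit was used. The study's methods name rRNA depletion, STAR and RSEM for another line, so the counting tool and strand setting behind these values are not given in the sources used here. Within each gene the TPM ratios between libraries were ratios of whole numbers in 100% of genes (largest relative deviation 7.15e-14, tolerance 1e-12). The smallest such whole numbers were taken as reads, which leaves a common factor per gene open, and gave the depth of 10730909 to 29405787 reads per library.

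Differences were tested with limma 3.58.1 (R 4.3.3) by lmFit and a robust, trended eBayes of log2(TPM + 0.5), two-sided and without covariates, over genes with at least 0.5 TPM in at least 3 libraries, with Benjamini-Hochberg adjustment over all 13163. Calls needed an adjusted p under 0.05 together with a log2 fold change of 1 or more in size. A gene whose libraries in a group all had at most 3 reads was at the floor, and folds against such a group are lower bounds set by 3 reads per library. Ratios of summed reads have 95% exact binomial intervals (scipy 1.17.1). Reads carry no molecular identifiers, so intervals and floors cover counting error only. The fit and the recovery of reads were tested on simulated data.

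The 45 genes, the other lists and the naming rule were chosen with earlier results of these data known. Named in full were called genes of the 45 and the 8 most abundant uncalled ones, at most 4 called genes per direction of the wider synapse list and 2 of each other list, *REST* and *PAX2*. Other members were named by count or against a paralogue. Deviations from the group means of libraries with equal numbers correlated at −0.0523, 0.0815 and 0.0014. No shared effect of equal numbers was thus seen, which does not settle whether those libraries were handled together. Chi-square per degree of freedom was 3.12 to 14.9 within groups and 32.1 to 58.3 between groups, so no library repeated another. Symbols were placed on GRCh37 with GENCODE release 44, 15324 directly and 1237 through an older symbol (94.8%). *DLG4*, *VAMP1*, *SYN1*, *SYT2* and *SHANK1* overlap a gene on the opposite strand, as do *REST*, *MAPT*, *ASPHD1* and *PRICKLE3*. Other pseudocounts, filters, scalings, tests and left-out libraries were tried.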

Additional observations from a re-analysis of the deposited data

How the results depend on the processing

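The 5 synapse genes called higher were also called with a pseudocount of 0.1 or 1, without a filter, under both other scalings, with voom on the recovered reads, and with the replicate block. A TPM minimum of 5 left 4, without *BSN*. Leaving out 1 library gave 1 to 5. The count was 1 without any shPAX2 library, since *UNC13A*, *SEZ6L2*, *CPLX1* and *BSN* then miss the TPM minimum in 3 libraries, and 5 in each case with the minimum in 2 libraries, an alternative chosen after seeing the data. With adjusted p alone, 7 of the 20 were higher and 8 lower, beside 1612 higher and 4017 lower of all 13163 genes tested. Of the wider synapse list, 4 were higher under quantile normalization and 8 with adjusted p alone. Its lower calls numbered 2 with a pseudocount of 1, 1 with a TPM minimum of 5, 2 under quantile normalization, 2 to 5 with 1 library left out, and 34 with adjusted p alone. The replicate block gave 2 higher and 3 lower, losing *PPFIA4* (limma, adjusted p = 0.0553), and changed no other call named in the text. Whether equal replicate numbers pair the libraries is not known.

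*SYNGR1* changed sign to 0.0569 under median-of-ratios scaling and 0.179 under quantile normalization. With 1 library left out it ran from −0.0945 to 0.0271, positive without replicate 3 of shEV (0.0271) or of shPAX2 (0.00164), with either TPM minimum. Quantile normalization also turned *DLG4* to 0.0104 and *SHANK3* to 0.0487, and the cause was not tested. Among changes of the 20 synapse genes, 411 alternative values kept direction and call and 8 changed sign. Among other named genes, 311 kept both and 14 kept direction only. Median-of-ratios scaling and quantile normalization moved the all-gene median by 0.11 and 0.10. Calls over all genes were 188 higher and 410 lower, and 240 and 293 under quantile normalization, where the median of the 20 was 0.11. The shEV reads of *UNC13A*, *SEZ6L2* and *CPLX1* limit their folds.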
